A study of Homo sapiens with 6 samples.

Results

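MYC and 9 nucleolar factors of ribosome biogenesis (NCL, NPM1, NOLC1, NOP56, NOP58, RRP9, DKC1, BOP1 and RRP12) were followed through 6 poly(A) RNA-seq libraries of 2 pancreatic ductal adenocarcinoma (PDAC) cell lines. They were taken by gene symbol and are 10 of the 41768 genes in the deposited table. PANC-1, an established human PDAC line, had 2 libraries with siALDOA (siALDOA 1 and siALDOA 2) and 1 library labelled NC. The line that the labels call 90 had the same 3 kinds of library. Here siALDOA was taken to mean siRNA directed at ALDOA, the gene of the glycolytic enzyme aldolase A. Not given in the sources used here are the meaning of 90 and NC, the dose and duration of treatment, and whether siALDOA 1 and 2 were different siRNAs. Nothing in the labels says that libraries came from separate cultures, so the p-values measure the spread between these libraries only, and that spread may be technical.

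MYC is a transcription factor that pairs with MAX on E-box DNA and is known for driving growth genes, among them many whose products build ribosomes. Ribosomal RNA is made by RNA polymerase I in the nucleolus, modified and folded with the help of small nucleolar ribonucleoproteins (snoRNPs), cut into the rRNAs of the small and large subunits, and exported to the cytoplasm with its ribosomal proteins. The 9 nucleolar genes cover these steps: chaperones and organisers of the nucleolus (NCL, NPM1, NOLC1), box C/D snoRNP proteins (NOP56, NOP58, RRP9), the catalytic H/ACA snoRNP protein (DKC1), a large-subunit assembly factor (BOP1) and a factor of late maturation and export (RRP12).

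Values are FPKM (fragments per kilobase, scaled to the M of fragments in the library, M for mega), so each is a level per length and relative to the rest of the library. In such bulk libraries, fewer cells with a transcript and less transcript per cell cannot be told apart. All 10 genes passed the minimum mean of 1 FPKM, as did 12592 genes in all. Ranked by mean FPKM over the 6 libraries, NPM1 stood at place 128 of all genes, NCL at 264, NOP56 at 661, DKC1 at 1038, NOLC1 at 1231, BOP1 at 1358, RRP9 at 1462, MYC at 1877, NOP58 at 2425 and RRP12 at 2807. Tests are limma's moderated test on log2(FPKM + 1), and calls were made where the Benjamini-Hochberg adjusted p over the 12592 genes was under 0.05. MYC lies on chromosome 8 from 127735434 to 127741434, plus strand (GRCh38, GENCODE v29, as for all gene positions here).

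Across the libraries as a whole, the depth recovered from low values was 18.8 to 21.9 M fragments in PANC-1 and 17.8 to 19.5 M in 90. PANC-1 siALDOA 1 differed in the genes detected. It had 23356 genes above 0, against 19171 to 20371 in the other libraries. Yet 11133 reached 1 FPKM in it, against 11337 to 12687 in the others. ALDOA, the targeted gene, stood at 501 and 462 FPKM in the siALDOA libraries of PANC-1, with NC at 906, and at 262 and 318 in those of 90, with NC at 726, so its level followed the labels. Of 7 epithelial and ductal markers, 7 reached the minimum mean, with a summed level of 3421 to 4387 FPKM in PANC-1 and 4867 to 6655 in 90, and 1 was called higher in PANC-1 (SOX9, log2 difference 0.87) and 4 lower (KRT7 -6.96, CDH1 -4.00, EPCAM -3.03 and KRT19 -1.43). KRT8 (0.46) and KRT18 (0.35) did not pass. None of 4 acinar or 3 endocrine markers reached 1 FPKM in any library. Among markers of other cells, 1 of 5 leukocyte genes was tested (CD68, log2 difference 1.90), as were 1 of 5 fibroblast genes (COL1A1, 2.33) and 1 of 3 endothelial genes (CDH5, -2.06, above the minimum only through 90). The summed leukocyte markers, nearly all CD68, ran from 124 to 162 FPKM in PANC-1 and from 31.3 to 51.2 in 90, the fibroblast markers from 10.1 to 14.0 in PANC-1 and 1.31 to 1.77 in 90, and the endothelial markers from 0.00781 to 0.0357 in PANC-1 and 3.65 to 3.83 in 90. Their part in the line differences given here was not tested.

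PANC-1 and 90 were compared first, with all 3 libraries of each line in 1 fit that has a term for siALDOA. The nucleolar genes NOLC1, NOP56, RRP9, DKC1, BOP1 and RRP12, were higher in PANC-1, by 1.62-fold to 3.43-fold, while MYC itself did not pass the test. Over the 10 genes the count was 6 higher and 0 lower, against a background of 38.8% of all tested genes called, 20.4% higher in PANC-1 and 18.4% lower. The median log2 difference of the 10 genes was 0.98, beside 0.13 over all genes tested. With each library scaled by its median ratio, the median of all genes moved to 0.02 and that of the 10 genes to 0.84. The calls among the 10 fell to 3, BOP1, NOP56 and RRP12. Over all 12592 tested genes the calls fell as well, from 4882 to 3700, of which 1607 were higher in PANC-1. In 7 of the 10 genes every PANC-1 library lay above every 90 library, which held for 29% of all tested genes, with 25.1% lying below and 54.1% apart in either direction.

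**Figure D1:**
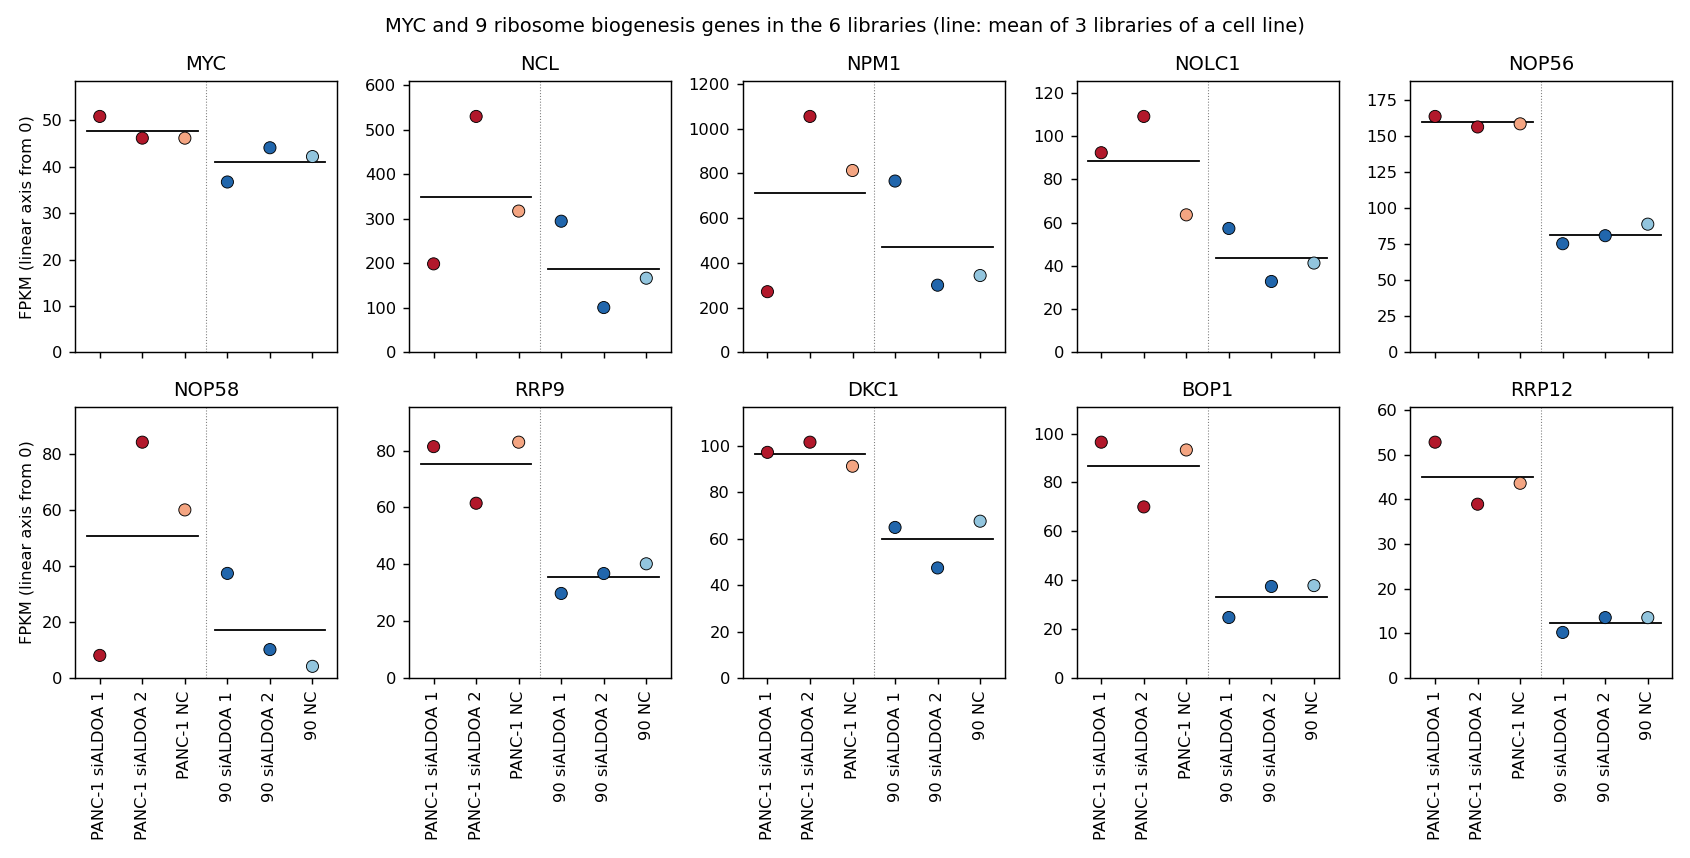
FPKM (linear axes from 0, a scale of its own for each gene) of the 10 genes in each library, with PANC-1 in red and 90 in blue, NC in the paler shade, and a line at the mean of the 3 libraries of a cell line. NOP56 stood at 156 to 164 FPKM in PANC-1 and at 75.3 to 88.9 in 90, whereas the NOP58 libraries of the lines overlap.

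MYC was close to level across the libraries. It stood at 50.8 FPKM in siALDOA 1, 46.2 in siALDOA 2 and 46.2 in NC of PANC-1, against 36.7, 44.1 and 42.2 in the same libraries of 90. The lowest PANC-1 library lay just above the highest 90 library, with means of 47.7 ± 2.70 and 41.0 ± 3.83 FPKM (SD, n = 3 each). The log2 difference was 0.22 (SE 0.131, 95% interval -0.12 to 0.55), a 1.16-fold difference that missed the threshold (limma adjusted p = 0.265). An exact permutation test over the 20 ways to split the libraries gave a two-sided p of 0.1, the smallest this design allows. Every gene whose lines do not overlap gets this p, and 54.1% of tested genes were of that kind. The test thus adds nothing to the lack of overlap.

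Promoters were at hand for 5 of these genes and are shown because the set is grouped under MYC, whose preferred E-box is CACGTG. Each line gives 100 bases ending with the first base of the transcript (RefSeq, GRCh38.p14), 5′ to 3′ on the strand of the gene, with matches of the 3 motifs searched in capitals. The windows are NCL at chr2:231464484-231464583 (minus strand), NPM1 at chr5:171387750-171387849 (plus), NOP56 at chr20:2652533-2652632 (plus), RRP9 at chr3:51941904-51942003 (minus) and DKC1 at chrX:154762765-154762864 (plus).
NCL: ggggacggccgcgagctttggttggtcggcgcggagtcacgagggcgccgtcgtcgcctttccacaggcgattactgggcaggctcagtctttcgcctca
NPM1: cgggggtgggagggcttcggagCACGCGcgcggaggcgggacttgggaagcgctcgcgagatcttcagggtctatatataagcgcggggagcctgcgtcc
NOP56: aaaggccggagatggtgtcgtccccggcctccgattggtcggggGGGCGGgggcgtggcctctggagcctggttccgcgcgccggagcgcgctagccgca
RRP9: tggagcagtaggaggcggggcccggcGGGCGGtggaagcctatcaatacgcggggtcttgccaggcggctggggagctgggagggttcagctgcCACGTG
DKC1: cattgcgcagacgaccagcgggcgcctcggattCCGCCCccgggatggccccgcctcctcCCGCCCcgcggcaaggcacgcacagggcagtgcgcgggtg

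The motifs were CACGTG, the related E-box CACGCG with its reverse complement CGCGTG, and the GC box GGGCGG with its reverse complement CCGCCC, read on both strands of 300 bases (250 before to 50 after the start). CACGTG was found in RRP9 alone of the 5, beginning at base -5 at the right end of its line, and is held by 7.26% of 35116 promoters. CACGCG or its complement was found in NPM1, with the copy shown beginning at base -77, and is held by 11.4% of promoters. The GC box occurred in NCL, NOP56, RRP9 and DKC1 and in 44.95% of promoters, and the NCL copies lie outside the bases shown. A match describes these letters only and is not a binding site or a cause of any difference.

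Among the nucleolar chaperones, NOLC1 was the one that passed the test between the lines. NOLC1 (chromosome 10, 102152176 to 102163871, plus strand) encodes a phosphoprotein that shuttles between nucleolus and Cajal body and chaperones snoRNPs. It stood at 92.4, 109 and 63.6 FPKM in siALDOA 1, siALDOA 2 and NC of PANC-1, against 57.3, 32.8 and 41.3 in 90. No library overlapped, with a gap of only 63.6 against 57.3 FPKM, and the log2 difference was 0.998 (SE 0.264, 1.997-fold, limma adjusted p = 0.0368).

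NCL, the gene of nucleolin, a pre-rRNA binding protein and one of the most abundant of the nucleolus, lies on chromosome 2 from 231453531 to 231483641 (minus strand). Its level was 199, 529 and 317 FPKM in siALDOA 1, siALDOA 2 and NC of PANC-1, against 294, 101 and 166 FPKM in 90. The lines overlapped because siALDOA 1 was the lowest library in PANC-1 and the highest in 90. NPM1, the gene of nucleophosmin, a chaperone that organises the outer layer of the nucleolus (chromosome 5, 171387116 to 171411137, plus strand), had the same order of libraries in PANC-1, with 271, 1055 and 813 FPKM, against 766, 300.5 and 344 in 90. The log2 differences of 0.91 for NCL (SE 0.546, 95% interval -0.49 to 2.32, limma adjusted p = 0.260) and 0.52 for NPM1 (SE 0.660, -1.18 to 2.21, adjusted p = 0.606) left the size and direction undetermined at this spread.

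Box C/D snoRNPs guide the methylation of rRNA and, with U3, its first cuts. NOP56 and NOP58 are the paired core proteins of the particle, and RRP9 is specific to U3. NOP56 (chromosome 20, 2652145 to 2658393, plus strand) was the steadiest of the 10 in PANC-1, at 164, 156 and 158 FPKM in siALDOA 1, siALDOA 2 and NC, against 75.3, 80.9 and 88.9 in 90. Its means of 159 ± 3.75 and 81.7 ± 6.81 FPKM (SD, n = 3 each) differed 1.94-fold (log2 difference 0.96, SE 0.109, limma adjusted p = 0.00242). RRP9 (chromosome 3, 51933430 to 51941941, minus strand) had 81.4, 61.5 and 82.9 FPKM in the same libraries of PANC-1, against 29.8, 36.8 and 40.2 in those of 90. It too showed no overlap and was higher in PANC-1 by 2.08-fold (log2 difference 1.06, SE 0.164, limma adjusted p = 0.00659).

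NOP58 varied far more between libraries of a line than its partner. This gene (chromosome 2, 202265716 to 202303666, plus strand) stood at 8.11 FPKM in siALDOA 1, 84.1 in siALDOA 2 and 59.96 in NC of PANC-1, against 37.3, 10.2 and 4.21 in 90. The highest PANC-1 library held 10.4-fold the lowest, and the lowest lay below 2 of the 90 libraries. The log2 difference of 1.47 had an SE of 1.16 (95% interval -1.51 to 4.44, limma adjusted p = 0.391). The ratio of NOP56 to NOP58 FPKM was accordingly 20.2, 1.86 and 2.64 in siALDOA 1, siALDOA 2 and NC of PANC-1, against 2.02, 7.94 and 21.1 in 90, so PANC-1 siALDOA 1 and 90 NC had the highest ratios. At the recovered depth the lowest value, that of 90 NC, corresponds to 75.1 fragments per kb of gene.

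DKC1 encodes dyskerin, the pseudouridine synthase of H/ACA snoRNPs, which also binds telomerase RNA. The gene lies on chromosome X from 154762742 to 154777689 (plus strand). It stood at 97.3, 102 and 91.3 FPKM in siALDOA 1, siALDOA 2 and NC of PANC-1, against 64.9, 47.5 and 67.6 in 90. All PANC-1 libraries were above all 90 libraries, with a 1.62-fold difference (log2 0.70, SE 0.174, limma adjusted p = 0.0306), the smallest among the 6 calls.

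BOP1 forms the PeBoW complex with PES1 and WDR12, which matures the large subunit. BOP1 (chromosome 8, 144262102 to 144291370, minus strand) stood at 96.5, 70.0 and 93.3 FPKM in siALDOA 1, siALDOA 2 and NC of PANC-1, against 24.8, 37.5 and 37.8 in 90. The groups were well apart, with a 2.57-fold difference (log2 1.36, SE 0.217, limma adjusted p = 0.00720). Its partners did not match it: WDR12 was higher in PANC-1, by 1.36 on the log2 scale (SE 0.335, adjusted p = 0.0294), whereas PES1 had 75.4, 56.4 and 74.5 FPKM in PANC-1 and 56.0, 75.7 and 73.1 FPKM in 90 (log2 difference 0.01, SE 0.182, adjusted p = 0.973). MROH1 and HSF1 begin or end within 0.162 and 0.221 kb of BOP1, and strand use in the counting is not given, so reads at those borders could have been assigned to either gene.

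RRP12, a HEAT-repeat protein whose yeast counterpart takes part in export of pre-ribosomal subunits, differed most among the calls. The gene (chromosome 10, 97356358 to 97426076, minus strand) stood at 52.8, 38.9 and 43.6 FPKM in siALDOA 1, siALDOA 2 and NC of PANC-1, against 10.2, 13.6 and 13.5 in 90. The lines were far apart at every library, by 3.43-fold (log2 1.78, SE 0.192, limma adjusted p = 0.00205).

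The number of calls depended on the libraries kept. Without NC of PANC-1 or without NC of 90, NOP56 and RRP12 were the 2 genes still called, out of the 6. These 2 fits are not separate checks. In either, the line difference comes from the siALDOA libraries alone, with fewer degrees of freedom, and the median of the 10 genes was 0.967 in both. Without PANC-1 siALDOA 2 the calls were 4, and DKC1 and NOLC1 were lost. They were lost as well without PANC-1 siALDOA 1, where NOP58 passed instead (log2 difference 2.69, adjusted p = 0.0428). Without either siALDOA library of 90 the 6 genes were called, and in each of these fits 10 of 10 differences lay above 0. Of all 12592 tested genes, 2422 were called without NC of PANC-1 and 2424 without NC of 90. Without PANC-1 siALDOA 1 or siALDOA 2 the count was 4110 or 3348. Without 90 siALDOA 1 or siALDOA 2 it was 4012 or 3948, and with all libraries 4882.

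**Figure D2:**
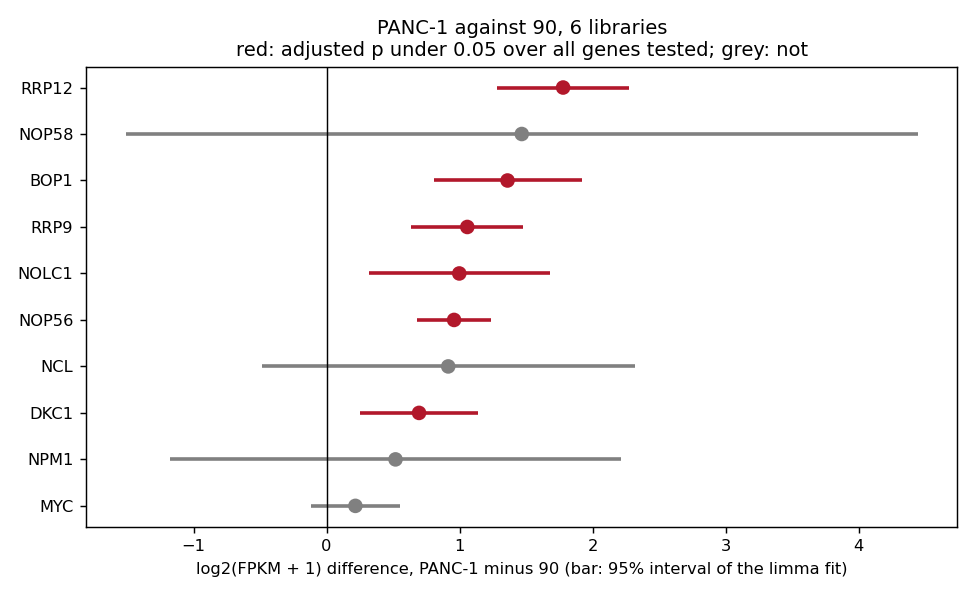
Log2(FPKM + 1) difference, PANC-1 minus 90, of the 10 genes (x axis), with the 95% interval of the limma fit as a bar and genes with an adjusted p under 0.05 in red. RRP12 lies highest at 1.78 and MYC lowest at 0.22, and the interval of NOP58 runs from -1.51 to 4.44.

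The comparison of siALDOA with NC asks whether loss of ALDOA transcript went with a change of MYC or of the ribosome biogenesis genes. No such change could be shown. Over both lines 0 of the 10 genes were called by limma and 0 at an unadjusted p under 0.05, with 0% of all 12592 genes called and 43 of them at an unadjusted p under 0.05. ALDOA itself was thus not called. Its log2 change from NC was -0.85 and -0.97 in siALDOA 1 and 2 of PANC-1 and -1.47 and -1.19 in those of 90. The test can therefore miss changes of that size. With no change in any gene, a share of 0.05 would fall under an unadjusted p of 0.05, and the 43 genes were fewer. The p-values of this fit thus ran large, and 0 of the 10 under 0.05 says little. The log2 change of MYC was 0.00 (SE 0.139, 95% interval -0.36 to 0.36), which leaves room for a 1.28-fold rise or a level of 0.781 of NC. The other changes ran from -0.25 for RRP9 (SE 0.174) to 0.43 for NOP58 (SE 1.23), with BOP1 at -0.24 (SE 0.230), NOP56 at -0.09 (SE 0.116), DKC1 at -0.08 (SE 0.184), RRP12 at -0.06 (SE 0.204), NPM1 at -0.06 (SE 0.700), NCL at 0.04 (SE 0.579) and NOLC1 at 0.36 (SE 0.280). Each has an adjusted p of 1. The median of the 10 genes was -0.06, beside 0.01 over all genes tested.

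RRP9 was the 1 gene of the 10 whose 4 siALDOA libraries lay below the NC library of their line, an arrangement that 5.82% of all tested genes shared. None of the 10 had all 4 above, as 3.39% of tested genes did. In PANC-1 alone the log2 changes ran from -1.13 for NOP58 to 0.65 for NOLC1, and in 90 alone from -0.30 for BOP1 to 1.99 for NOP58, with 0% of genes called in either line, and 21 and 33 genes at an unadjusted p under 0.05. The difference between the siALDOA effects (PANC-1 minus 90) was called for 0 of the 10 genes and 0% of all, with 24 genes at an unadjusted p under 0.05. Its extremes were -3.12 for NOP58 (SE 2.26) and 0.58 for NOLC1 (SE 0.581). With 1 NC library a line, the NC libraries were taken to vary like the siALDOA libraries.

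The 2 siALDOA libraries of a line moved apart for some of these genes and not for others. Relative to NC of its line, NOP58 stood at a log2 change of -2.74 in PANC-1 siALDOA 1 and 0.48 in siALDOA 2, and at 2.88 and 1.10 in 90. NPM1 stood at -1.58 and 0.38 in PANC-1 and at 1.154 and -0.19 in 90, and NCL at -0.67 and 0.74 in PANC-1 and at 0.82 and -0.72 in 90. Within PANC-1 the log2 range of NOP58 over the 3 libraries was 3.22, wider than that of 99.4% of tested genes, and within 90 it was 2.88, wider than 99.1%. At the other end NOP56 ranged over 0.0654 in PANC-1 (percentile 2.19) and 0.24 in 90 (percentile 18.1), and MYC over 0.14 (7.33) and 0.26 (21.2). The median range of all tested genes was 0.40 in PANC-1 and 0.45 in 90.

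Base composition moved with part of these departures. NOP58 has the lowest GC content of the 10, 41.3% of its longest GENCODE transcript, followed by NPM1 at 43.3% and NCL at 47.2%, then NOLC1 at 47.8%, DKC1 at 48.4%, NOP56 at 50.9%, MYC at 53.9%, RRP12 at 58.6%, RRP9 at 60.9% and BOP1 at 65.2%. Over all tested genes the eighth that holds NOP58 had a median log2 change from NC of -0.54 in siALDOA 1 and 0.47 in siALDOA 2 of PANC-1, and of 0.80 and -0.14 in 90. NOP58 itself stood at 1.10 in 90 siALDOA 2, away from its eighth. The eighth of NCL, NOLC1 and DKC1 had medians of 0.0728 and 0.0841 in PANC-1 and 8.34e-04 and -0.16 in 90, and NCL lay farther from 0 than these in each of the 4 libraries. The eighth of highest GC content, with BOP1, had 0.10 and -0.21 in PANC-1 and -0.27 and 0.11 in 90. With each library's GC trend removed, the range of NOP58 was still 2.07 in PANC-1 and 1.94 in 90 and that of NCL 1.25 and 1.20, whereas NPM1 came to 1.18 and 0.56. The ranges of RRP12 (0.14 and 0.14) and MYC (0.10 and 0.09) were smaller too. The 6 genes called between the lines were again called, while the calls over all 12592 tested genes rose from 4882 to 6537.

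**Figure D3:**
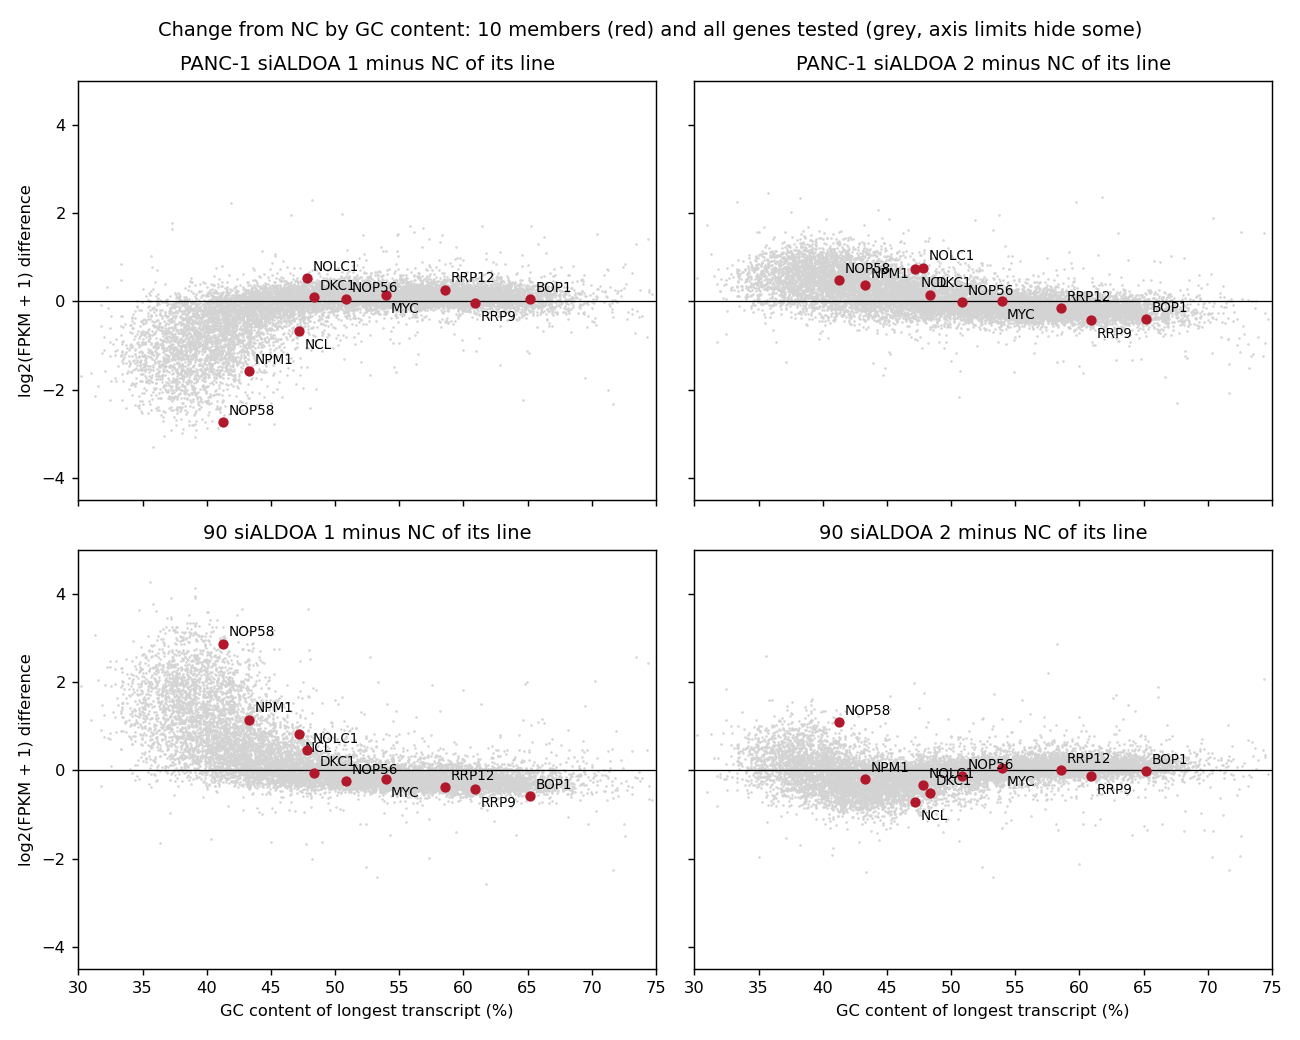
Log2(FPKM + 1) difference of each siALDOA library from NC of its line (y axis) by GC content of the longest transcript in percent (x axis), with the 10 genes in red and all tested genes in grey. NOP58, at a GC content of 41.3%, stands at -2.74 in PANC-1 siALDOA 1 and at 2.88 in 90 siALDOA 1, whereas NOP56, at 50.9%, stands at 0.0458 and -0.24 in the same libraries.

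The other genes of these pathways were read from lists in the same comparison of PANC-1 with 90, where 38.8% of all tested genes were called, 20.4% higher and 18.4% lower, with a median log2 difference of 0.13. RNA polymerase I genes counted 4 higher and 1 lower of 20 tested, with a median of 0.26. That is 25% called and 20% higher, no more than over all genes. POLR1E, a subunit of polymerase I, was higher by 2.09 (SE 0.135), with 100.5, 83.8 and 85.9 FPKM in siALDOA 1, siALDOA 2 and NC of PANC-1, against 19.9, 19.3 and 22.1 in 90. POLR2L, a subunit shared by the 3 nuclear polymerases, was higher by 1.83, and POLR1A, the largest subunit, by 0.75, while TAF1C, of the promoter selectivity factor, was lower (-0.64).

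The remaining snoRNP proteins held the widest difference of these ribosome lists. FBL, fibrillarin, the methyltransferase that works with NOP56 and NOP58, stood at 3867, 3078 and 3975 FPKM in siALDOA 1, siALDOA 2 and NC of PANC-1, against 123, 155 and 164 in 90 (log2 difference 4.62, SE 0.156, limma adjusted p = 1.79e-04). The ratio of FBL to NOP56 FPKM was thus 23.6, 19.7 and 25.1 in PANC-1 and 1.63, 1.91 and 1.84 in 90, with no overlap. Of 13 tested, 5 were higher (38.5%) and 1 lower, with a median of 0.32. The other higher genes were RUVBL1 (1.09) and RUVBL2 (0.80), ATPases of box C/D assembly, and GAR1 (0.68) and NHP2 (0.66), H/ACA core proteins that sit with dyskerin. ZNHIT3, a box C/D assembly factor, was lower (-1.21).

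Small-subunit processome genes counted 4 higher and 3 lower of 40 tested (median 0.45), a share of 17.5% called that lies below the 38.8% of all genes. UTP14A, known for the exit of U3 from the processome in yeast, had 47.1, 44.8 and 44.9 FPKM in those libraries of PANC-1, against 13.4, 13.5 and 13.5 in 90 (log2 difference 1.68, SE 0.114), and the helicase DHX37 (1.49) and PDCD11 (1.38) were higher as well. RRP7A (-1.07), IMP3 (-0.79), a U3 protein, and AATF (-0.69) were lower. Large-subunit assembly genes counted 12 higher and 1 lower of 45 (median 0.61, 28.9% called and 26.7% higher), where the 12 include RRP36, whose yeast counterpart acts on the small subunit. Among the called genes EBNA1BP2 (1.77, SE 0.1004), WDR12 (1.36) and GNL3L (1.27) had the largest positive differences, and DDX24 was lower (-0.73). Export and late small-subunit genes counted 5 higher and 0 lower of 18 (median 0.53, 27.8% called), and those called were led by PNO1 (1.45), DIMT1, the rRNA dimethyltransferase (1.02), and BYSL (0.79).

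**Figure D4:**
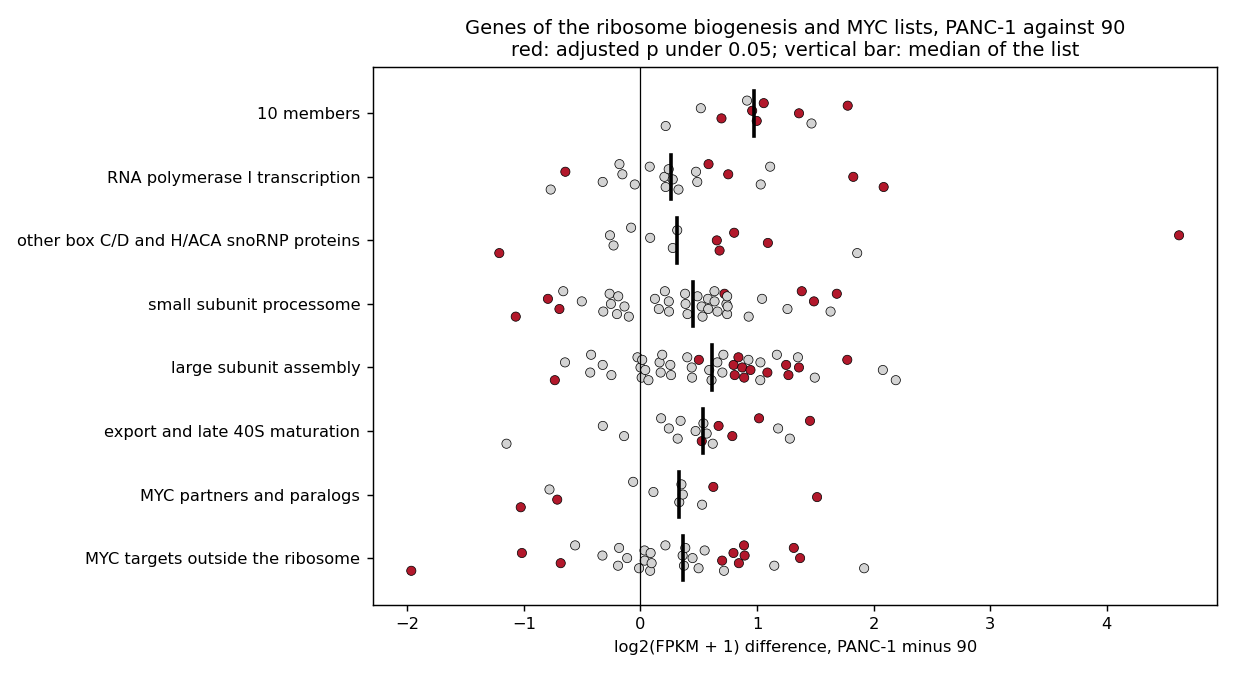
Log2(FPKM + 1) difference, PANC-1 minus 90 (x axis), of every tested gene of 8 lists (down the page), with genes of adjusted p under 0.05 in red and the list's median as a vertical bar. The median of the 10 genes is 0.98 and the other medians lie between 0.26 and 0.61, with FBL alone at 4.62.

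MYC's partners and paralogs counted 2 higher and 2 lower of 11 tested, 36.4% called, near the 38.8% of all genes. MAX, the obligate partner of MYC, was lower in PANC-1, with 16.1, 15.4 and 14.6 FPKM in siALDOA 1, siALDOA 2 and NC, against 22.9, 27.4 and 27.5 in 90 (log2 difference -0.71, SE 0.142, limma adjusted p = 0.0150). Among the MAX-binding repressors MXD4 was lower (-1.03), MXD3 higher (0.63) and MXI1 higher (1.52), the last at 0.106 to 0.296 FPKM in 90 and above the minimum only through PANC-1. The paralogs MYCN and MYCL were under the minimum mean, so MYC was the tested member of its family. Genes of MYC turnover counted 1 higher (AURKA, the kinase that stabilises MYC proteins, 0.97) and 0 lower of 10 tested, and so 10% called.

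Of 31 tested MYC targets outside the ribosome, 7 were higher and 3 lower in PANC-1, with a median of 0.36. The share higher, 22.6%, was near the 20.4% of all genes, and the share called, 32.3%, was under the 38.8%. HSPE1, a mitochondrial chaperonin (1.37), SRM, spermidine synthase (1.32), and CCT5, a chaperonin subunit (0.89), were the highest of the called. CCND2, cyclin D2 (-1.97, at 0.0632 to 0.126 FPKM in PANC-1 and above the minimum only through 90), EIF4EBP1, a translation repressor (-1.02), and SHMT2, of mitochondrial serine metabolism (-0.68), were lower. Of 8 proliferation genes 1 was higher, CCNB1 (1.01), and 0 lower, 12.5% called. For siALDOA against NC over both lines 0 genes of these lists were called. The smallest p among the ribosome lists was that of FTSJ3, a large-subunit methyltransferase (log2 change -0.27, SE 0.134, limma, unadjusted p = 0.0996, adjusted p = 1).

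Likeness of pattern was measured as the root mean square difference of mean-centred log2(FPKM + 1) profiles over the 6 libraries, among 5564 protein-coding genes whose mean reached 10 FPKM. Among the 5 profiles nearest to MYC were those of MECR (0.0294), NOP14, a small-subunit processome protein (0.0418), NPIPA1 (0.0438), one of a family of near-identical copies whose reads are uncertain, and SCPEP1 (0.0459). Nearest to the median profile of the 9 nucleolar genes were UBE2A (0.0914), UBE2G1 (0.111), DIMT1 (0.112), SOD2 (0.114) and NOL7 (0.122). Among the 10 genes the closest pairs were NOP56 with RRP9 (0.149), RRP9 with BOP1 (0.173) and NOP56 with DKC1 (0.214). These are descriptions of 6 libraries, in which the line difference and the base-composition trend are shared by many genes.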

How the data were processed

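The authors deposited FPKM values per gene and library, from poly(A)-selected RNA extracted with Trizol, per the labels' protocols. HISAT2, featureCounts and the build hg38 are named, per the submitters' processing notes. Not given in the sources used here are versions, strand use and gene lengths. One row without a gene name was dropped. Depth came from short RNA genes, where FPKM times RefSeq length was a whole multiple (up to 8, tolerance 0.03) of 1 fragment's worth in 96.1% to 97.1% of cases, by library. Fragment counts of other genes were not rebuilt, and a count model was not used.

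The scale was log2(FPKM + 1), which understates changes of low genes, and genes whose mean reached 1 FPKM were tested. R 4.3.3 and limma 3.58.1 (intensity trend, two-sided) fitted line and siALDOA over all libraries (3 residual degrees of freedom) for the lines and for siALDOA over both, and 4 group means (2 degrees of freedom) for effects within a line and their difference. Scripts were tested on simulated data. GC content came from the longest GENCODE v29 transcript, found for 94.8% of tested genes. Promoters on the chromosome that carries MYC and BOP1 were left out before the motif search and are not among the 35116. The absence of these genes from the promoters shown therefore says nothing about RefSeq.

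The 10 genes and all lists were chosen with earlier results of these data known. All 10 are named, with up to 3 called genes per direction of each list, the 5 nearest profiles, neighbours of MYC and BOP1, and small RNAs and pseudogenes of the 10 genes. Genes named beyond that (PES1, NHP2 and RRP36 among them) were chosen after their values were seen. A few genes covered by this rule are not reported here. Alternatives were pseudocounts, filters, scalings, GC correction, no trend, left-out libraries and a replicate block.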

Additional observations from a re-analysis of the deposited data

Results flagged for a closer look

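DKC1, the dyskerin gene, was flagged because its siALDOA libraries moved in opposite directions in the lines. In PANC-1 both siALDOA libraries lay above NC (97.3 and 102 FPKM against 91.3), and in 90 both lay below (64.9 and 47.5 against 67.6). The log2 difference between the effects (PANC-1 minus 90) was 0.40 (SE 0.399) and did not pass limma's test (unadjusted p = 0.371, adjusted p = 1). The log2 change from NC in 90 siALDOA 1 was only -0.06. No other of the 10 genes showed such a split. Its share over all tested genes was not counted, so the split is not read as particular to DKC1.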

How the results depend on the processing

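Between PANC-1 and 90, 190 values (10 genes, 19 settings) stayed above 0, with 165 on the same side of the threshold, 19 no longer called and 6 newly called. NOP56 and RRP12 were called in 19 of 19. Genes called numbered 4882, against 2663 with a mean of at least 10 FPKM, where fewer were tested. Leaving out 1 library gave 2422 to 4110 genes and 2 to 6 of the 10, and median ratio scaling gave 3700 genes and 3 of the 10. The cause was not tested. Libraries of the same replicate number moved in opposite directions in the lines (siALDOA 1 minus 2 correlated between the lines at r = -0.86 over 12592 genes, which are not replicates). Whether the numbers pair libraries across the lines is not given in the labels. With a replicate block 3258 genes and 4 of the 10 were called, without DKC1 and NOLC1, and with the block and GC correction 5385 and 6. Chosen after seeing the data, a crossed replicate block called 7594 genes and 8 of the 10. A fit without siALDOA 1 of both lines, with 1 residual degree of freedom and also chosen afterwards, called 7201 genes and 9 of the 10, all but MYC, and 17 genes for siALDOA against NC, none of the 10.

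Within the lines, no filter on low values gave 38 genes called in 90 and 49 in PANC-1, all lower and none of the 10. For siALDOA over both lines, 0 of 160 values were called and 21 changed sign. Without 1 library the log2 change ran from -0.0669 to 0.0683 for MYC, -0.29 to 0.37 for NCL, -0.60 to 0.48 for NPM1, -0.19 to 0.0131 for NOP56, -1.13 to 1.99 for NOP58, -0.28 to 0.12 for DKC1 and -0.19 to 0.0551 for RRP12. Without the NC library of a line, the fit gives the siALDOA change of the other line alone. The ends of these ranges, except for NCL, are those within-line changes, and part of the 21 sign changes arose there. NPM1 came to 8.07e-03 with TPM, 0.0299 with quantile normalization and 0.0909 without siALDOA 1 of both lines, and NOP56 to 2.96e-03 with quantile normalization. With 1 NC and 2 siALDOA libraries a line, none of these 7 changes has a settled direction.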

Other observations

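A list with genes tied to the 5S RNP, which joins the large subunit during its assembly, was also read in PANC-1 against 90. It holds other genes too. Of 10 tested, 3 were called in either direction (30%), beside 38.8% of all tested genes. GLTSCR2 (NOP53), a nucleolar assembly factor, stood at 79.2, 57.6 and 76.1 FPKM in siALDOA 1, siALDOA 2 and NC of PANC-1, against 192, 261 and 229 in 90 (log2 difference -1.67, SE 0.191, limma adjusted p = 0.00245). GDF15, a stress cytokine of the same list and not a part of the 5S RNP, was higher (2.29, SE 0.260). RPL5 (-0.58, adjusted p = 0.0577) and RPL11 (0.33, adjusted p = 0.125), the ribosomal proteins of the 5S RNP, did not pass.

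Of the tested genes nearest to MYC on chromosome 8, the long noncoding RNA PVT1 (53.1 kb away) was higher in PANC-1. It stood at 13.2, 11.4 and 11.9 FPKM against 4.80, 5.63 and 6.72 in 90 (log2 difference 0.98, SE 0.174, limma adjusted p = 0.0101). FAM84B (1177 kb away, -3.06) and GSDMC (2007 kb away, -2.26) were lower and passed the minimum through 90. TRIB1 (2297 kb away, -0.50, adjusted p = 0.0632), NSMCE2 (2368 kb away, 0.29) and MIR1204 (54.5 kb away, 0.35) did not pass. Around BOP1, FAM203A was higher (0.66, adjusted p = 0.0244), and HSF1 (0.53, adjusted p = 0.0603), MROH1 (-0.29), TSSK5P1 (-0.11), DGAT1 (-0.11) and SLC52A2 (0.23) did not pass.

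NOP56 hosts 5 snoRNA genes and 1 miRNA gene in the annotation, of which SNORD110 reached 17.8 FPKM. The listed snoRNAs in NCL reached 2.67 FPKM, those in NOP58 0.635 and those in DKC1 0.414. Such short RNAs overlap their host and are poorly measured by poly(A) libraries. NPM1 has 49 pseudogenes in the table, 19 of them above 0 somewhere and 1 reaching 1 FPKM. That one, NPM1P27, stood at 5.50, 22.1 and 19.4 FPKM in siALDOA 1, siALDOA 2 and NC of PANC-1, against 14.9, 6.11 and 7.20 in 90, with siALDOA 1 lowest in PANC-1 and highest in 90 as for NPM1. Reads shared between NPM1 and its copies could have been assigned to either.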
